A study of Mus musculus with 6 samples.

Results

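The 39 genes described here encode scaffold, signaling and adhesion proteins of the postsynaptic side of the synapse. They were chosen by name, as the rows of the deposited expression table whose gene symbol is on a list of postsynaptic density genes, and all 39 were found among the 24972 genes of the table. Total RNA was sequenced from mouse cortex at postnatal day 7 (P7), with 3 libraries from wildtype mice, which carry the floxed Zmiz1 allele (Zmiz1f/f), and 3 from mice labelled Zmiz1-KO (Zmiz1f/f;Emx1Cre). Both groups thus carry the floxed allele, and the Zmiz1-KO mice carry in addition Cre recombinase driven by Emx1, which acts in cortical progenitors and their progeny, mostly excitatory neurons and glia, while cortical interneurons arise elsewhere. 1 label speaks of progenitor cells, but the extraction label and the study's methods name dissected cortex. The methods give 3 cortices per genotype, but nothing used here says that libraries come from separate litters, so p-values measure the spread between these libraries.

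The postsynaptic density is a protein mesh under the membrane of excitatory synapses. Membrane-associated guanylate kinases (MAGUKs, the Dlg proteins) bind glutamate receptors, Dlgap proteins join MAGUKs to Shank proteins, and Shank and Homer proteins form a deeper layer that reaches actin and internal calcium stores. CaMKII is an abundant kinase of this mesh and acts in synaptic plasticity, and regulators of small GTPases shape the actin of the spine. At inhibitory synapses gephyrin takes the place of the MAGUKs as the main scaffold. In rodent cortex synapses form in large numbers in the first postnatal weeks, so P7 lies within that period.

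Values are the authors' normalized counts. The targeted gene went against its label: Zmiz1 had 8119, 7929 and 7461 normalized counts in wildtype, against 9944, 9779 and 9660 in libraries labelled Zmiz1-KO, a difference of 0.32 on the log2 scale (limma adjusted p = 0.00125). The table holds 1 value per gene, so transcripts that hold the floxed part cannot be told apart from those that lack it, and every direction given here rests on labels that Zmiz1 itself goes against. Library totals of normalized counts lay between 3.27e+07 and 3.32e+07, values that normalization brings together, so they do not give the sequencing depth. Xist was at 25307 in the third wildtype library and at 24403 in the second labelled Zmiz1-KO, and at 57.3 or less in the other 4 libraries, so each group holds 1 library with high Xist. The 5 excitatory neuron markers searched (Slc17a7, Slc17a6, Neurod6, Neurod2 and Tbr1) were present in every library, with summed levels of 31457 to 35687 in wildtype and 31417 to 32776 in libraries labelled Zmiz1-KO. None of the 5 had a higher mean in libraries labelled Zmiz1-KO, and the mean of Slc17a7 was nearly level (19640 in wildtype and 19623). For Neurod2 all values labelled Zmiz1-KO lay below wildtype (log2 fold change -0.17, limma adjusted p = 0.241).

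Of the 39 genes, 1 passed an adjusted p of 0.05 (limma), Iqsec3, which was higher in libraries labelled Zmiz1-KO. Over all 15800 tested genes, 0.411% passed in either direction, 0.165% passed as higher and 0.247% as lower. All 39 genes passed the filter on low values, a normalized count of at least 10 in at least 3 libraries. Their log2 fold changes ran from -0.15 (Cnksr2) to 0.24 (Iqsec3), with a median of -0.0062, beside a median of -0.00018 over all tested genes. In 33 of the 39 genes the change was smaller than 0.10 on the log2 scale in either direction. The 95% interval of the change lay within a 1.25-fold change either way in 38 of the 39 genes, Iqsec3 being the exception. That held for 61.0% of all tested genes and for 93.6% of the 8288 tested genes whose mean normalized count lay within the range of the 39, from 642 to 37110. A 1.25-fold difference therefore lay outside the interval for all but Iqsec3, and standard errors ran from 0.034 to 0.077 on the log2 scale. The smallest p that an exact two-sided permutation test can give with 3 libraries against 3 is 0.1.

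**Figure D1:**
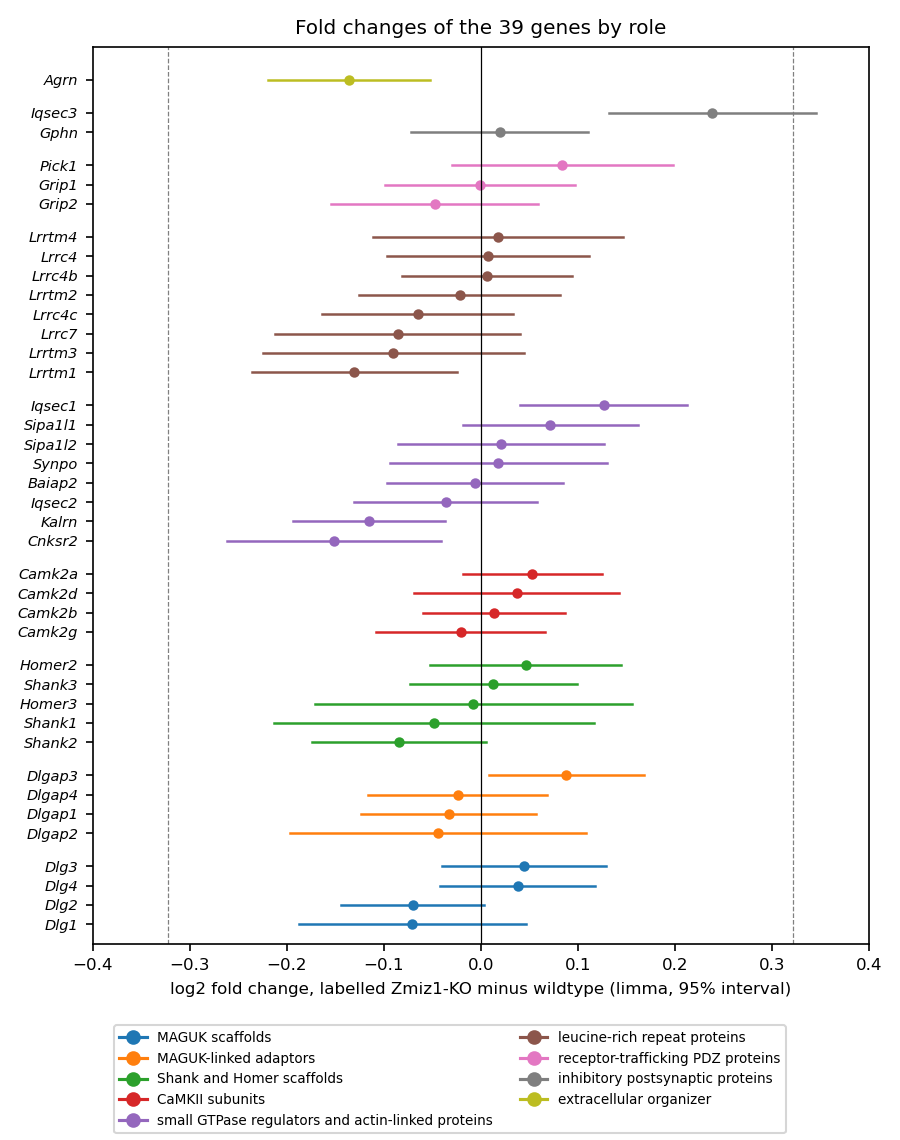
log2 fold change (x axis, labelled Zmiz1-KO minus wildtype) of each of the 39 genes, grouped and colored by role. Points are limma estimates from 3 libraries against 3, bars are 95% intervals, and dashed lines mark a 1.25-fold change. Iqsec3, at 0.24, is the gene whose interval crosses a dashed line, and most other intervals include 0.

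In 10 of the 39 genes (25.6%) the 3 values of the libraries labelled Zmiz1-KO lay wholly above or wholly below the 3 wildtype values, against 16.3% of all tested genes and 18.8% of those in the same range of levels. Above were 3 genes (Iqsec3, Iqsec1 and Dlgap3, background 8.10%) and below were 7 (Cnksr2, Agrn, Lrrtm1, Kalrn, Lrrtm3, Shank2 and Dlg2, background 8.16%). Of the 8288 tested genes in the same range of levels, 716 lay above and 843 below. An unadjusted p under 0.05 was found in 7 of the 39 (17.9%), against 11.0% of all tested genes and 13.6% of those in the same range of levels, with 3 higher and 4 lower. Some of these separations were narrow. For Lrrtm1 the highest value labelled Zmiz1-KO was 2459.1 and the lowest wildtype value 2459.9 normalized counts, and for Lrrtm3 these were 962.3 and 962.4.

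**Figure D2:**
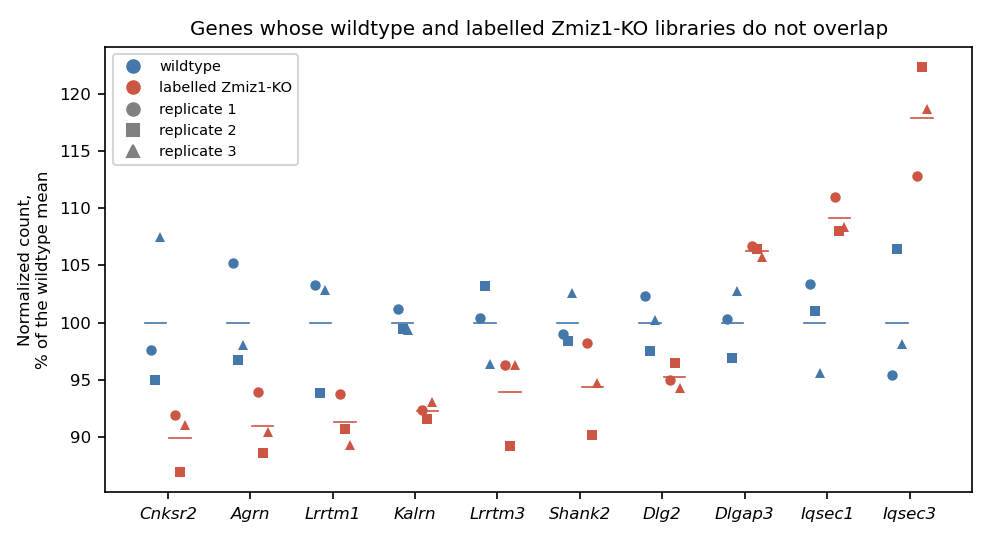
Normalized count as a percentage of the wildtype mean (y axis) in each library for the 10 genes whose groups do not overlap. Symbols mark replicates 1, 2 and 3, and lines are group means. The mean labelled Zmiz1-KO of Iqsec3, 1.18-fold the wildtype mean, stands farthest from it, and the values labelled Zmiz1-KO of the 7 genes on the left lie below it.

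The sequences before the start sites of Iqsec3, Iqsec1, Kalrn and Agrn are shown because these 4 genes have the smallest p-values among the 39. Each is the 250 bases before a RefSeq start on GRCm38.p6, written 5′ to 3′ on the strand of the gene. Where a gene has more than 1 RefSeq start, the farthest upstream is printed, and capitals mark a match to an Egr site (GCGNGGGCG) on either strand. The stretches of Iqsec1 and Kalrn lie inside the annotated genes, whose upstream ends are at 90988685 on chromosome 6 and 34573532 on chromosome 16. The bases before these upstream ends were not searched.
Iqsec3, chr6:121473679-121473928, minus strand: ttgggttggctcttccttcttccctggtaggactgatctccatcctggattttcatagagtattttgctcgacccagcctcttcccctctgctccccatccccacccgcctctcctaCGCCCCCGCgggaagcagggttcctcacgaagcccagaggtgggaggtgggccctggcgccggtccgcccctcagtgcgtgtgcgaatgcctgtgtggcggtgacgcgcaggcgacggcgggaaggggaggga
Iqsec1, chr6:90810124-90810373, minus strand: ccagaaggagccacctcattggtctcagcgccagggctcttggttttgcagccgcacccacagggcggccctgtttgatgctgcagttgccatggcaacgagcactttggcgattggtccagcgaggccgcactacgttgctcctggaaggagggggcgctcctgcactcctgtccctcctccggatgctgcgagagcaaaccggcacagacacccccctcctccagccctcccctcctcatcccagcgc
Kalrn, chr16:34514028-34514277, minus strand: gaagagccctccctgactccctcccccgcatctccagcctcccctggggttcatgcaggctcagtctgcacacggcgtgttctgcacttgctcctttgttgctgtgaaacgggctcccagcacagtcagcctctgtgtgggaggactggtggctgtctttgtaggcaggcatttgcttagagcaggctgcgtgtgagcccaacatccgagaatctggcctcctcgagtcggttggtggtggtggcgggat
Agrn, chr4:156197489-156197738, minus strand: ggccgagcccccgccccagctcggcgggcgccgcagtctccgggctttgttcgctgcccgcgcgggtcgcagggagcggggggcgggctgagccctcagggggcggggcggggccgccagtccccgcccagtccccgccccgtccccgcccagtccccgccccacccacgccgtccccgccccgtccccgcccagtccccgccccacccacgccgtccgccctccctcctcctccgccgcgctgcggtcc
The Iqsec3 stretch holds 1 match to the Egr letters and 17 CpG, with a GC content of 64.8%. No match to a CRE (TGACGTCA), an AP-1 site (TGANTCA) or an Egr site lies in the other 3 stretches, and a further RefSeq start of Agrn, not printed, has 1 Egr match. RefSeq starts were matched for 32 of the 39 genes, with 52 stretches in all, and not for Camk2a, Camk2g, Dlgap2, Lrrtm2, Shank1, Shank2 and Synpo. Egr letters were found in 9 of the 52 (17.3%) and in 4.70% of all 32851 stretches of the same length. Besides Iqsec3 and Agrn, they lay before Dlgap4, Homer2 and Iqsec2 (1 match each), Shank3 (2), and Camk2b, Baiap2 and Sipa1l2 (3 each). The levels of all these other genes had overlapping groups, and a part of the Egr letters in any change was not tested. AP-1 letters were found in 2 of the 52 (3.85%) against 6.75% of all, and the CRE in 0 of the 52 against 1.55% of all. The median GC content was 57.4% over the 52 and 52.4% over all stretches, so the groups also differ in base composition. The stretch printed for Agrn has a GC content of 83.6%, the highest of the 4.

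Inhibitory postsynaptic proteins were gephyrin and Iqsec3. Iqsec3, an exchange factor for Arf GTPases that binds gephyrin at inhibitory synapses, lies on chromosome 6 of GRCm38 from 121372933 to 121473678. It had 2713, 3026 and 2788 normalized counts in the wildtype libraries 1 to 3, against 3206, 3477 and 3373 in libraries labelled Zmiz1-KO. All 3 libraries labelled Zmiz1-KO were above wildtype, in which Zmiz1 itself was lower. Its mean rose from 2843 ± 163 (SD, n = 3) to 3352 ± 137 (SD, n = 3), 1.18-fold (95% interval 1.10 to 1.27), a difference of 0.24 on the log2 scale (SE 0.051, limma adjusted p = 0.04999, exact permutation p = 0.1). The adjusted p is just under the threshold, and the direction was the same in all alternatives tried, several of which cannot change a direction. Without wildtype replicate 1 or 3 the adjusted p was 0.187 or 0.160, and without replicate 1, 2 or 3 labelled Zmiz1-KO it was 0.104, 0.0748 or 0.294 (limma), so each of these libraries ends the call when left out. The call was also lost with limma-voom, no filter, a pseudocount of 0.1, no robust estimation and the Xist level as a covariate, which makes 10 of 16 refits. Without wildtype replicate 2 it was 0.0222, and over all alternatives it ran from 0.0097 to 0.294. Gphn, which encodes gephyrin itself, had 3095, 3096 and 2959 normalized counts in wildtype, against 3118, 3098 and 3057 in libraries labelled Zmiz1-KO. The groups overlapped, and the log2 fold change of 0.02 had a 95% interval of -0.07 to 0.11 (limma adjusted p = 0.919).

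The summed normalized counts of 6 interneuron markers (Gad1, Gad2, Slc32a1, Dlx1, Lhx6 and Sst) were 16507, 20714 and 18431 in wildtype and 21554, 23359 and 22139 in libraries labelled Zmiz1-KO. The 6 libraries had the same order in this sum as in Iqsec3, with wildtype replicate 1 lowest and replicate 2 labelled Zmiz1-KO highest, though no single marker had that order. The sums of 13 marker lists were compared with Iqsec3 in this way, and the orders of the other lists differed. All 6 markers had higher means in libraries labelled Zmiz1-KO, 3 with groups apart, and none passed the threshold (limma). Of 6 markers of striatal projection neurons (Drd1, Drd2, Ppp1r1b, Adora2a, Rgs9 and Penk), which lie under the cortex, all had higher means and 4 had groups apart. Their sums were 8420, 11400 and 11918 in wildtype, with replicate 1 well below the others, and 13125, 13883 and 12559 in libraries labelled Zmiz1-KO. None of the 12 markers was at 0 in any library, and their part in the result for Iqsec3 was not tested. In whole tissue, fewer cells of a type and less RNA per cell cannot be told apart.

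**Figure D3:**
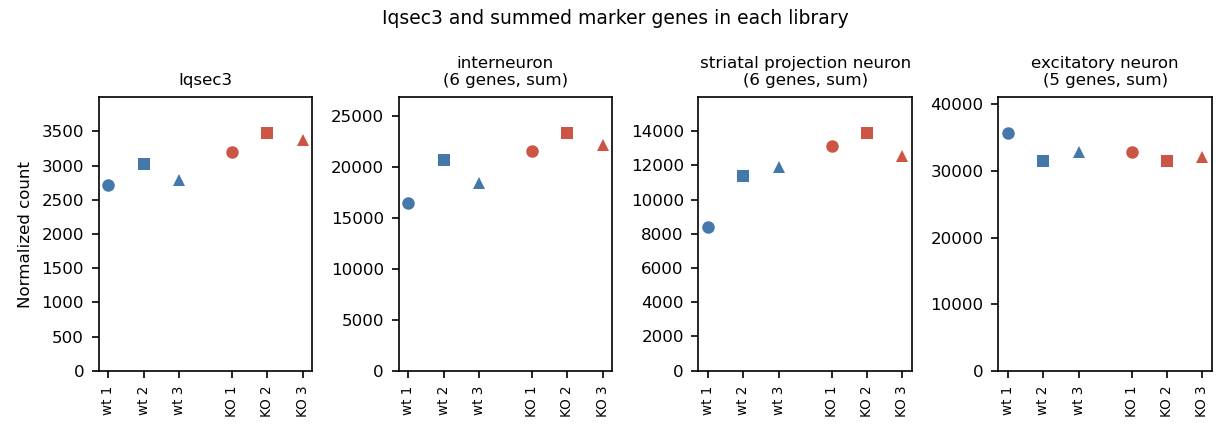
Normalized counts (y axes, from 0) of Iqsec3 and the summed normalized counts of 6 interneuron, 6 striatal projection neuron and 5 excitatory neuron markers in wildtype (wt, blue) and labelled Zmiz1-KO (KO, red) libraries 1, 2 and 3. Iqsec3 and the interneuron sum put the libraries in the same order, the only match among 13 marker lists compared. The excitatory sums of the groups overlap.

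Of the other marker lists searched, the sums of 5 meningeal fibroblast markers (7889 to 9226 in wildtype, 10419 to 10950.5 in libraries labelled Zmiz1-KO) and of 7 immediate-early genes (4230 to 4476, and 5735 to 5835) lay apart as higher, and that of 6 oligodendrocyte lineage markers (11358 to 12889, and 10525 to 10907) lay apart as lower. The sums of astrocyte, microglia, endothelial, pericyte, choroid plexus, thalamic neuron and blood markers overlapped. Those of choroid plexus markers were uneven within both groups, at 241, 8254 and 6273 in wildtype and 3129, 286 and 4763 in libraries labelled Zmiz1-KO. Single markers past the threshold (limma) were Col1a2 of the meningeal list, 1.245-fold higher (adjusted p = 0.00464), Aqp4 of the astrocyte list, which was lower, and 4 of the 7 immediate-early genes, which were higher. These 4 were Egr1 (1.45-fold), Fos (1.93-fold), Fosb (2.01-fold) and Arc (1.32-fold). Their part in the results for the 39 genes was not tested.

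Iqsec1 and Iqsec2 encode exchange factors for Arf GTPases of excitatory synapses. Iqsec1, on chromosome 6 from 90656088 to 90988685, showed 6258, 6114 and 5790 normalized counts in wildtype, against 6721, 6537 and 6561 in libraries labelled Zmiz1-KO. The groups did not overlap, with the second group above, as for Zmiz1, and the log2 fold change of 0.13 (95% interval 0.04 to 0.21) gave an adjusted p by limma of 0.240, over the threshold. Iqsec2, on the X chromosome, had 4733, 4516 and 4334 normalized counts in wildtype, against 4547, 4279 and 4416 in libraries labelled Zmiz1-KO, which overlap (log2 fold change -0.04, limma adjusted p = 0.837). Counted per base of its longest transcript, Iqsec2 made up 41.4%, 39.8% and 40.3% of the summed Iqsec level in wildtype and 38.0%, 36.4% and 37.3% in libraries labelled Zmiz1-KO. That was the largest shift among the 25 shares of the 7 families, 3.28 percentage points lower, and the shares of Iqsec1 and Iqsec3 lay apart as higher (exact permutation p = 0.1 for each of the 3, the smallest possible). The wildtype share of Iqsec3 reached 19.9% in replicate 2, and the lowest share in libraries labelled Zmiz1-KO was 20.0%, and without division by length the groups overlapped. Shares of a family sum to 100, so that a gene that does not move can change its share when another does.

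Among the other regulators of GTPases and actin, Kalrn and Cnksr2 were lower with groups apart but over the threshold. Kalrn, an activator of small GTPases that enlarges dendritic spines, had 7139, 7012 and 7012 normalized counts in wildtype, against 6513, 6459 and 6563 in libraries labelled Zmiz1-KO. The SDs of 73.4 and 52.2 (n = 3) were small beside the difference, and the log2 fold change came to -0.12 (SE 0.037, limma adjusted p = 0.237). Cnksr2, a scaffold of Ras signaling coded on the X chromosome, had 2675, 2603 and 2946 normalized counts in wildtype, against 2519, 2383 and 2495 in libraries labelled Zmiz1-KO. Wildtype replicate 3 stood above the others, and the log2 fold change came to -0.15 (SE 0.052, limma adjusted p = 0.272), and to -0.10 without that library (limma adjusted p = 0.537). Baiap2, an adaptor that bends the membrane over actin and the member of this group with the highest level per length, had 4457, 4227 and 4427 normalized counts in wildtype, against 4440.2, 4426 and 4189.7 in libraries labelled Zmiz1-KO, with overlapping groups and a log2 fold change of -0.0062. The log2 fold changes of the Rap regulators Sipa1l1 and Sipa1l2 were 0.07 and 0.02, and that of Synpo, which organizes the spine apparatus, was 0.02. None of these 4 had groups apart, and none of the 8 genes of this role passed the threshold (limma, 3 at an unadjusted p under 0.05, 0 with limma-voom).

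Agrn, which encodes the secreted proteoglycan agrin, best known for clustering acetylcholine receptors at the neuromuscular junction, was the next smallest p after Iqsec3. It lies on chromosome 4 from 156165290 to 156197488 and showed 20562, 18898 and 19152 normalized counts in wildtype, against 18353, 17317 and 17664 in libraries labelled Zmiz1-KO. All 3 of the latter lay below wildtype, while Zmiz1 lay above. The log2 fold change came to -0.14 (SE 0.040, 95% interval -0.22 to -0.05), with an adjusted p by limma of 0.191, over the threshold, and an exact permutation p of 0.1. On average the level was 0.910-fold that of wildtype. Agrin is made by many cell types, among them cells of vessels. The 5 endothelial markers had sums of 6023 to 6135 in wildtype and 5938 to 6289 in libraries labelled Zmiz1-KO, and the 5 astrocyte markers 34258 to 35973 and 32549 to 34477, both overlapping. Of the astrocyte markers, Aqp4, a water channel of astrocyte endfeet, was lower in libraries labelled Zmiz1-KO, at 0.815-fold (limma adjusted p = 0.00499). Slc1a3 also lay apart as lower, whereas Gfap lay apart as higher. The groups of Aldh1l1 and Gja1 overlapped, with the mean lower for Aldh1l1 and higher for Gja1. The part of these cells in the result for Agrn was not tested.

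None of the 4 MAGUK scaffold genes passed the threshold (limma, 0 at an unadjusted p under 0.05, 0 with limma-voom). Dlg4, the most abundant MAGUK of mature excitatory synapses, had 25448, 23527 and 24252 normalized counts in wildtype, against 25851, 24455 and 24860 in libraries labelled Zmiz1-KO. These overlap, with a difference of 0.04 on the log2 scale (95% interval -0.04 to 0.12, limma adjusted p = 0.781). Dlg2, a close relative whose gene spans 1972576 bases, had 17936, 17099 and 17566 normalized counts in wildtype, against 16651, 16912 and 16531 in libraries labelled Zmiz1-KO. The second group lay below the first, against the direction of Zmiz1, but the change of -0.07 (SE 0.035) gave an adjusted p by limma of 0.485. Dlg3, coded on the X chromosome, had a log2 fold change of 0.04 and Dlg1 had -0.07, and in both the groups overlapped. Per length, Dlg4 made up 48.8% ± 0.50 of the summed Dlg level in wildtype and 49.9% ± 0.70 in libraries labelled Zmiz1-KO (SD, n = 3), followed by Dlg2 (28.4% and 27.0%), Dlg3 (18.5% and 19.0%) and Dlg1 (4.30% and 4.09%). The order of the 4 genes was thus the same in both groups, and of these shares that of Dlg2 had groups apart, as lower. With the union of exons as length, Dlg4 and Dlg2 made up 35.9% and 34.8% in wildtype, so the lead of Dlg4 depends on the length used.

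None of the 4 Dlgap adaptor genes passed the threshold (limma, 1 at an unadjusted p under 0.05, 0 with limma-voom). Dlgap3 had 8172, 7894 and 8371 normalized counts in wildtype, against 8693, 8671 and 8611 in libraries labelled Zmiz1-KO. The latter 3 were close together, with an SD of 42.4, and lay above wildtype, as Zmiz1 did, but the log2 fold change, 0.09 (SE 0.038), gave an adjusted p by limma of 0.387. Dlgap4, the member with the highest level per length, had 11796, 10738 and 11396 normalized counts in wildtype, against 11605, 10597 and 11173 in libraries labelled Zmiz1-KO, with a log2 fold change of -0.02. Those of Dlgap1 and Dlgap2 were -0.03 and -0.04, also with overlapping groups. Dlgap3 made up 35.8%, 37.1% and 37.5% of the summed Dlgap level per length in wildtype and 38.1%, 39.4% and 38.4% in libraries labelled Zmiz1-KO, so that its share also lay apart.

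Of the 5 Shank and Homer scaffold genes, none passed the threshold (limma, 0 at an unadjusted p under 0.05, 0 with limma-voom), and 4 had overlapping groups. Shank1, the Shank gene with the highest level per length, had 18212, 16634 and 15091 normalized counts in wildtype, against 17154, 15530 and 15532 in libraries labelled Zmiz1-KO. Its wildtype coefficient of variation of 9.38% was the highest among the 39 genes. Shank3, a gene tied to Phelan-McDermid syndrome, had 8379, 8306 and 8357 normalized counts in wildtype, a coefficient of variation of 0.443% that was the lowest among the 39, and 8890, 8079 and 8323 in libraries labelled Zmiz1-KO. The log2 fold change of Shank3 was 0.01 (95% interval -0.07 to 0.10, limma adjusted p = 0.943), and its SD was 37.0 in wildtype and 416 in libraries labelled Zmiz1-KO. Shank2 had 5831, 5796 and 6040 normalized counts in wildtype, against 5786, 5310 and 5578 in libraries labelled Zmiz1-KO. Its groups lay just apart, 5796 against 5786, as lower (log2 fold change -0.08, standard error 0.042, limma adjusted p = 0.493). Homer2 and Homer3, which link Shank to metabotropic glutamate receptors, had log2 fold changes of 0.05 and -0.0076. Homer3, at 587 to 677 normalized counts, shares 18.8% of the 75-base stretches of its transcripts with Ddx49 on the other strand, so reads of the pair may be split.

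Camk2b and Camk2a were the 2 genes with the highest levels per length among the 39, and the groups overlapped for all 4 CaMKII subunit genes. Camk2b had 37717, 35478 and 37622 normalized counts in wildtype, against 37458, 36586 and 37799 in libraries labelled Zmiz1-KO, a difference of 0.01 on the log2 scale (95% interval -0.06 to 0.09). Camk2a, the subunit that rises as excitatory neurons mature, had 24704, 23824 and 24170.5 normalized counts in wildtype, against 25387, 25468 and 24575 in libraries labelled Zmiz1-KO. The lowest of the latter lay under the highest wildtype value, and the change of 0.05 had a 95% interval of -0.02 to 0.12 (limma adjusted p = 0.606). Camk2d and Camk2g had log2 fold changes of 0.04 and -0.02 with overlapping groups. Per length, Camk2b made up 55.3% and 55.0% of the summed Camk2 level in wildtype and in libraries labelled Zmiz1-KO, Camk2a 29.4% and 30.0%, Camk2g 10.8% and 10.5%, and Camk2d 4.49% and 4.53%. No Camk2 share had groups apart.

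**Figure D4:**
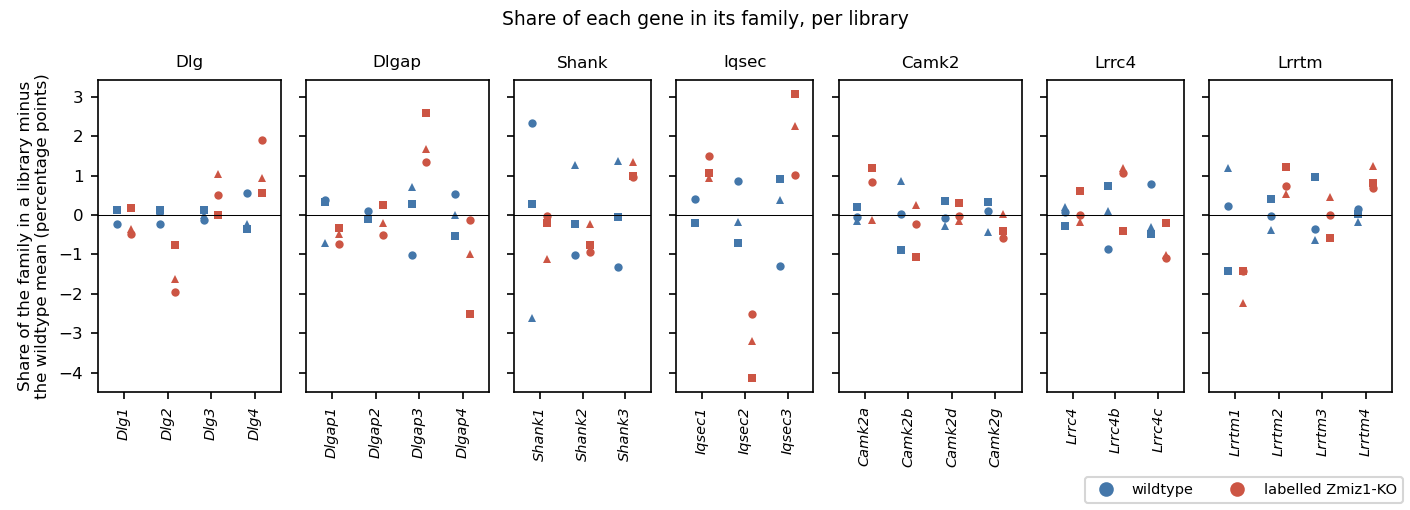
Share of each gene in the summed level per length of its family, as the difference of each library from the wildtype mean in percentage points (y axis), for 7 families and 25 genes. Blue points are wildtype and red points labelled Zmiz1-KO libraries, with a symbol for each replicate. Iqsec2 is lowest in libraries labelled Zmiz1-KO, by 3.28 points in the mean, while the red and blue points of the Shank, Camk2 and Lrrc4 families overlap.

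Most of the leucine-rich repeat proteins sit in the postsynaptic membrane and bind presynaptic partners, and 5 of their 8 genes had a negative log2 fold change. Lrrtm1, a ligand of neurexins, had 2708, 2459.9 and 2697 normalized counts in wildtype, against 2459, 2378 and 2342 in libraries labelled Zmiz1-KO. The second group was below, against the direction of Zmiz1, with a difference of -0.13 on the log2 scale (SE 0.050) and an adjusted p by limma of 0.331. Lrrtm2, Lrrtm3 and Lrrtm4 had log2 fold changes of -0.02, -0.09 and 0.02. Lrrtm1 made up 55.7% ± 1.31 of the summed Lrrtm level per length in wildtype and 54.0% ± 0.48 in libraries labelled Zmiz1-KO (SD, n = 3), and its share lay apart as lower, though not with the union of exons as the length. The lowest wildtype share was 54.306% and the highest labelled Zmiz1-KO 54.303%. Shares of Lrrtm2 (18.2% and 19.1%) and Lrrtm4 (12.2% and 13.1%) lay apart as higher. Lrrtm4 shares 23.4% of its 75-base stretches with Gm4409 on the other strand. Lrrc4b, a netrin-G ligand family gene and the most abundant of this group per length, had 8300, 8289 and 8543 normalized counts in wildtype, against 8860, 8035 and 8375 in libraries labelled Zmiz1-KO, with overlapping groups and a log2 fold change of 0.0069. Log2 fold changes were 0.0077 and -0.07 for its relatives Lrrc4 and Lrrc4c, and -0.09 for Lrrc7, which encodes densin, a partner of CaMKII. None of the 8 passed the threshold (limma, 1 at an unadjusted p under 0.05, 0 with limma-voom).

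Pick1, Grip1 and Grip2 bind the tail of AMPA receptor subunits through PDZ domains and act in receptor traffic. Pick1 had 1813, 1905 and 1825 normalized counts in wildtype, against 1896, 2096 and 1889 in libraries labelled Zmiz1-KO. Wildtype replicate 2 lay within the second group, and the change of 0.08 gave an adjusted p by limma of 0.610. Pick1 shares 16.8% of its 75-base stretches with Gm49486. Grip1 had 2107 ± 37.5 and 2107 ± 14.0 normalized counts (SD, n = 3 per group), and Grip2 had a log2 fold change of -0.05 with overlapping groups.

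Levels per length spanned from 9182 ± 315 normalized counts per kb of longest transcript in wildtype for Camk2b to 193 ± 10.7 for Lrrc7 (SD, n = 3). Camk2a (4876 ± 89.2), Dlg4 (3859 ± 153), Lrrc4b (3071 ± 52.5) and Agrn (2690 ± 123) followed Camk2b, each separated from the next by more than their SDs. These SDs do not cover the choice of length, on which the order depends. For Dlg4 the longest transcript has 6326 bases and the union of exons 12013. Lower in the order, neighbors such as Iqsec1 (753 ± 29.9), Iqsec2 (752 ± 33.2) and Camk2d (744 ± 42.7) did not differ beyond their spread. For Iqsec1 and Iqsec2 that holds with this length only. In wildtype they made up 45.1% and 33.7% of the Iqsec sum without division by length. With the union of exons as length these were 36.7% and 48.3%. Gephyrin was at 854 ± 22.0 and Iqsec3 at 352 ± 20.2 in wildtype and 416 in libraries labelled Zmiz1-KO.

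**Figure D5:**
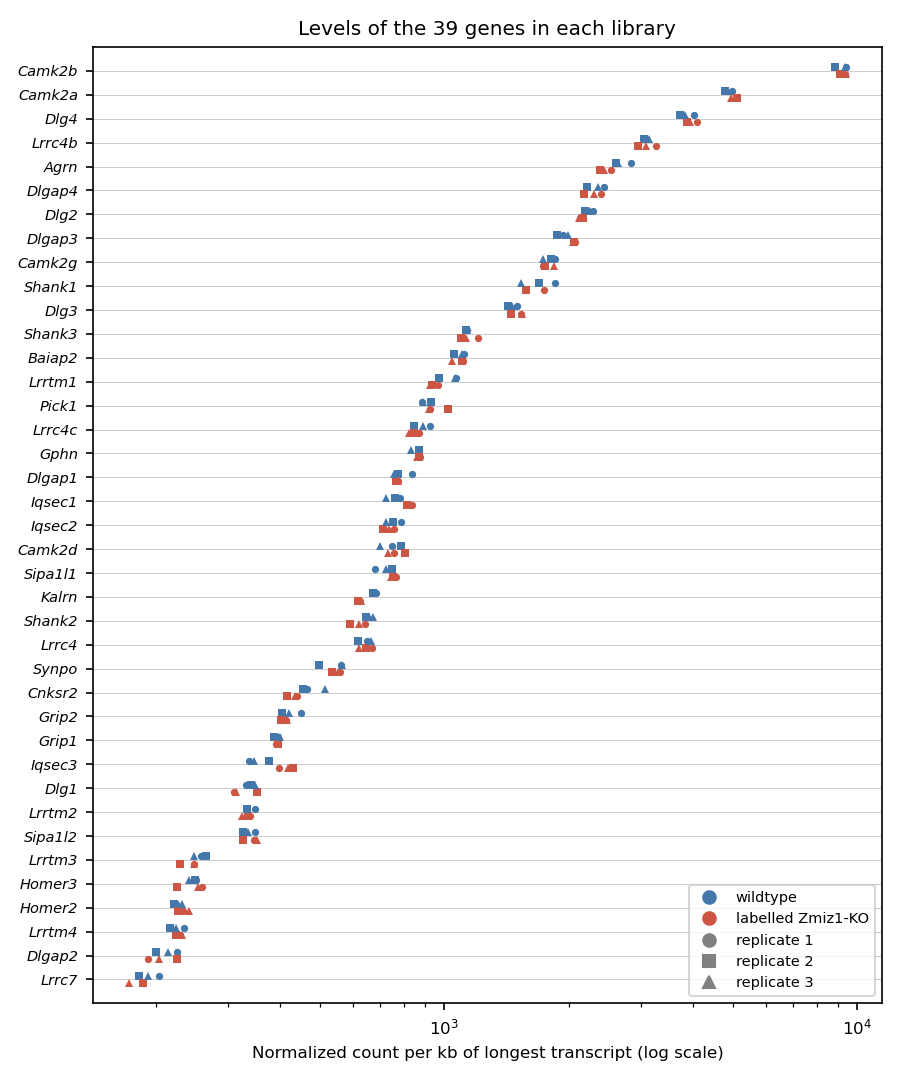
Normalized count per kb of longest transcript (x axis, log scale) of the 39 genes in each of the 6 libraries, ordered by the wildtype mean, with blue points for wildtype and red points for the libraries labelled Zmiz1-KO. Camk2b is highest, at 9182 in the wildtype mean, Lrrc7 is lowest at 193, and for most genes the colors overlap.

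The spread between replicate libraries was small for these genes. The median coefficient of variation was 3.51% in wildtype and 3.04% in libraries labelled Zmiz1-KO, beside 6.20% and 5.79% over all tested genes, of which many have lower counts. Wildtype replicate 1 held the highest of the 6 values in 16 of the 39 genes (41.0%) and in 21.4% of all tested genes. Replicate 2 labelled Zmiz1-KO held the lowest value in 12 of the 39 (30.8%, 17.7% of all tested genes) and wildtype replicate 2 in 10 (25.6%, 16.5%). The genes span 6.02 to 1973 kb in the genome, with a median of 107 kb, against 25.3 kb over 14808 tested protein-coding genes. Of the 19 members longer than their median, 12 had a negative log2 fold change, and 9 of the other 20 did. Among all 2121 tested protein-coding genes longer than 107 kb, 59.9% had a negative log2 fold change, a share close to that of the longer members. Across genes, which are not replicates, span and log2 fold change had a Spearman correlation of -0.16 both over the 39 and over all tested protein-coding genes.

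Of 66 other postsynaptic genes on the list drawn up beside the 39, 65 were found by symbol and all 65 were tested. None passed an adjusted p of 0.05 (limma, and 0 with limma-voom). An unadjusted p under 0.05 was found in 16 (24.6%), 5 higher and 11 lower, against 11.0% of all tested genes. Among tested genes in the range of levels of the 39 it was found in 13.6%. The median log2 fold change of the 65 was -0.02. Groups lay apart in 13 of the 65 (20.0%, background 16.3%, and 18.8% in that range of levels). Rasgrf1, an exchange factor for Ras that calcium activates, had the smallest p, with 2044, 2141 and 2089 normalized counts in wildtype, against 2494, 2650 and 2192 in libraries labelled Zmiz1-KO (log2 fold change 0.22, limma adjusted p = 0.168). The next 4 were Frmpd4 (-0.20), Flrt2 (-0.15), Slitrk2 (-0.19) and Akap5 (0.19) by log2 fold change, with limma adjusted p values of 0.216, 0.240, 0.303 and 0.310. Akap5, which anchors kinases and calcineurin at the synapse, stood at 2721, 2743 and 2737 in libraries labelled Zmiz1-KO and at 2096, 2503 and 2602 in wildtype. Homer1, a partner of Shank proteins, had a log2 fold change of -0.12 with overlapping groups (limma adjusted p = 0.473). Among the 7 inhibitory postsynaptic genes of this list, Igsf9b, Lhfpl4 and Mdga2 had groups apart, the first 2 as higher and Mdga2 as lower, and none passed the threshold.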

How the data were processed

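Total RNA of P7 cortex was sequenced in 3 wildtype libraries and 3 labelled Zmiz1-KO. The authors aligned reads to mm10 with STAR in Illumina BaseSpace, counted them per gene and normalized them with DESeq2, and deposited the normalized signal values, here called normalized counts. Tool versions and the gene annotation are not given in the sources used here. Raw counts were not used here, so the comparison was run with limma (version 3.58.1, R version 4.3.3) on log2(value + 1), with a mean-variance trend and robust estimation, over the 15800 genes that reached 10 in 3 or more libraries. P-values are two-sided and Benjamini-Hochberg adjusted over these genes. Fold changes on this scale understate changes of low genes. Libraries were grouped by their titles, with no covariate. The procedure was tested on simulated data in which the spread of a gene depended on its level only. No simulated gene had an outlying spread, so robust estimation was not tested there.

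Gene positions, transcript lengths and shared 75-base stretches are from GENCODE M21 (GRCm38), and sequences from RefSeq (GRCm38.p6). Level per length divides by the longest coding transcript. Values in every library are given for genes past the threshold, genes with groups apart and an unadjusted p under 0.05, the highest gene per length of each role, the 3 largest changes, Iqsec3 and Agrn, which the study names, and Dlg4, Camk2a, Shank3 and Gphn. Dlg2, Shank2, Iqsec2, Homer1, Igsf9b, Lhfpl4 and Mdga2 were added after their values were seen, as were the motifs and the 4 genes with printed sequences. The 39 genes and all lists were chosen with earlier results of these data known. Figures were drawn with matplotlib (version 3.10.9).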

Additional observations from a re-analysis of the deposited data

How the results depend on the processing

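The count of the 39 genes past the threshold was 1 under upper-quartile scaling, a filter of 10 in each of the libraries and a pseudocount of 10, and 0 with limma-voom (Iqsec3 adjusted p = 0.0614), no filter (0.0511), a pseudocount of 0.1 (0.0506), no robust estimation (0.141) and the Xist level as a covariate (0.0525). It was 0 to 1 with each library left out in turn. With the replicate number as a block it was 2, Iqsec3 (limma adjusted p = 0.0097) and Agrn (0.0287), and 168 of all tested genes passed. Nothing used here says that same-numbered libraries share more than a number. Their deviations from the group means correlated at -0.11 to -0.0051 over tested genes, and a shared batch or litter was not tested. Over all tested genes 65 passed, against 106 at an adjusted p of 0.1, 17 without robust estimation and 12 to 152 with each library left out, 12, 17 and 152 without replicates 3, 1 and 2 labelled Zmiz1-KO and 30 without wildtype replicate 1. The count of the other postsynaptic genes was 0, and 0 to 1 with each library left out (Cttnbp2, without replicate 2 labelled Zmiz1-KO). Of the 25 family shares, 8 had groups apart. This count was 8 without division by length and 7 with the union of exons as length, an alternative added after the data were seen. It was 9 to 14 with a library left out (14 without replicate 2 labelled Zmiz1-KO), which leaves fewer values to overlap. Levels lay apart in 16.3% of all tested genes, but the shares of a family are tied to each other. Of the 39 genes, 22 kept their direction under all 17 alternatives, of which median-ratio scaling (all factors were 1) and an adjusted p of 0.1 (1 gene passed with each) could not change a direction. Nor could no filter, a filter of 10 in each of the libraries, no robust estimation and the replicate block, which leave the log2 fold change of a gene as it was. Grip1 turned to 0.0053 (limma-voom), 0.0056 (upper quartile) and 0.0013 (Xist covariate). With each library left out in turn, the log2 fold changes of the 17 genes that changed sign ran as follows: Baiap2 -0.0300 to 0.0210, Camk2b -0.0151 to 0.0290, Camk2d -0.00607 to 0.0768, Camk2g -0.0469 to 0.00178, Dlgap1 -0.0613 to 0.00765, Dlgap2 -0.106 to 0.00831, Dlgap4 -0.0606 to 0.0109, Gphn -0.00218 to 0.0303, Grip1 -0.0144 to 0.0111, Homer3 -0.0483 to 0.0549, Lrrc4 -0.0222 to 0.0343, Lrrc4b -0.0302 to 0.0403, Lrrtm4 -0.00769 to 0.0476, Shank1 -0.117 to 0.0190, Shank3 -0.0257 to 0.0433, Sipa1l2 -0.00400 to 0.0559, Synpo -0.0420 to 0.0496. The cause of these changes was not tested. Depth per library is not given by normalized values, so no counting interval was made.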

Other observations

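The genes beside Iqsec3 were read after its values were seen. Slc6a12, which encodes a betaine and GABA transporter, ends 7157 bases from Iqsec3 on the opposite strand. It had 28.1, 98.8 and 66.0 normalized counts in wildtype, against 107, 110 and 109 in libraries labelled Zmiz1-KO, with groups apart and a difference of 0.92 on the log2 scale (limma adjusted p = 0.492). Slc6a13, a GABA transporter of the meninges and 1 of the 5 meningeal fibroblast markers, ends 35199 bases away. It had 513, 698 and 685 normalized counts in wildtype, against 799, 806 and 875 in libraries labelled Zmiz1-KO, also apart, with a difference of 0.40 on the log2 scale (limma adjusted p = 0.181). On the other side the nearest coding gene, A2m, starts 161697 bases away and had overlapping groups (log2 fold change -0.03, limma adjusted p = 0.958). No 75-base stretch of Iqsec3 transcripts occurs in transcripts of another gene.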
